A study of Mus musculus with 6 samples.

Results

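Fibroblasts of mouse skin that carry transcripts of Coch, Dkk2 or Crabp1 were examined in single-cell RNA sequencing libraries of dorsal skin. Members were selected on measured values in individual cells. A barcode first had to pass a fibroblast gate, with at least 20 UMIs per 10000 of Col1a1, Col1a2, Col3a1 and Dcn together, no UMI of Ptprc, under 10 per 10000 of Krt5 and Krt14 together and under 20 per 10000 of Acta2 and Tagln together. UMIs are the random tags by which captured RNA molecules were counted. Within the gate, a member had at least 3 UMIs per 10000 of Coch, Dkk2 and Crabp1 together. The rule took 5577 cells, which were 27.8% of the 20027 gated fibroblasts (95% Clopper-Pearson interval 27.2 to 28.5) and 11% of the 50850 barcodes kept. The other 14450 gated fibroblasts served as the comparison.

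The libraries came from the shaved back skin of female C57BL/6 mice aged 8 to 10 weeks, in 3 groups of 2 libraries. Sham mice were untreated. In the IMQ group, 62.5 mg of cream with 5% imiquimod, an agonist of the receptor TLR7, was applied daily over 4 days, which leads to inflammation resembling psoriasis. IMQ+SHP099 mice received the same cream and, each day for 4 days, 10 mg/kg of SHP099 into the stomach, an allosteric inhibitor of the phosphatase SHP2. Treated skin was taken 1 day after the last dose. Skin of several mice was pooled for every library, which counts as 1 replicate, so that mice cannot be told apart and p-values measure only the spread between libraries.

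Fibroblasts of the dermis differ by depth and by their relation to the hair follicle. Papillary fibroblasts lie under the epidermis, reticular fibroblasts lie deeper and lay down thick collagen bundles, and the fibroblasts of the dermal papilla sit inside the base of the follicle and direct its growth. Wnt signals, which act through beta-catenin, are strengthened by secreted R-spondins and dampened by secreted inhibitors such as those of the Dickkopf family. Dkk2 encodes a member of that family, Crabp1 a cytoplasmic protein that binds retinoic acid, and Coch the secreted matrix protein cochlin. In the mouse genome (GRCm38, GENCODE annotation) Coch lies on the plus strand at chr12:51593341-51605771, Dkk2 on the plus strand at chr3:132085292-132180304 and Crabp1 on the plus strand at chr9:54764748-54773110.

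The libraries held 53913865 to 188283327 UMIs, and 7382 to 10293 barcodes of each were kept. Members numbered 131 and 778 in Sham, 1309 and 1566 after IMQ, and 696 and 1097 after IMQ+SHP099, in the order of replicates 1 and 2. Their median depth was 5431 to 8367 UMIs. The members of Sham replicate 1 held 817195 UMIs in all, against 4826422 to 14172763 in each of the other libraries, so that values of this library are the least precise. Pairs of libraries shared 12 to 30 kept barcodes and at most 1 barcode among members. The median share of mitochondrial UMIs in members was 3.61% and 3.72% in Sham, 2.09% and 2.36% after IMQ, and 2.02% and 1.66% after IMQ+SHP099, and its part in the results was not tested. Scrublet's automatic threshold marked no cell in 3 libraries and thus had not worked there. A fixed score of 0.3 was exceeded by 25 members.

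The levels of the genes in the label are fixed by the rule and say nothing of its accuracy. The fibroblast gene Lum was not used by the rule. It encodes a small proteoglycan of collagen fibrils and stood at 1446 to 2645 CPM in members and at 1717 to 2620.2 CPM in the other gated fibroblasts. CPM here are UMIs per 1000000 UMIs summed over the cells of a library, with library sizes scaled by TMM. Outside the gate, the limit of 3 UMIs per 10000 was reached by 0.890% of Ptprc-positive cells, 0.711% of keratinocytes and 4.33% of cells with Acta2 and Tagln. Just outside the limit, 736 gated cells stood at 2 to 3 UMIs per 10000, with a median of 2 UMIs of the 3 genes. Just inside it, 525 members stood at 3 to 4, with a median of 3.00 UMIs. A further 3386 members stood at 10 or more, and 11874 gated cells held no UMI of the 3 genes. A single UMI alone placed 3.82% of members, and 13.0% of those of Sham replicate 1.

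Members made up a larger share of the gate in IMQ than in Sham libraries, but 2 libraries against 2 cannot reach a small p. The share was 12.1% (10.2 to 14.2) and 22.4% (21 to 23.8) in Sham, 39.0% (37.3 to 40.7) and 26.6% (25.4 to 27.7) after IMQ, and 37.9% (35.6 to 40.1) and 25.1% (23.8 to 26.4) after IMQ+SHP099. The Clopper-Pearson intervals cover counting error only. The means were 17.2% ± 7.29, 32.8% ± 8.79 and 31.5% ± 9.06 (SD, n = 2 each). IMQ exceeded Sham by 15.6 points without overlap (exact two-sided permutation p = 0.33, the smallest this design allows). When Coch was left out of the rule, the difference was 6.02 points and the groups overlapped (exact permutation p = 0.667). The mean share in IMQ+SHP099 minus that in IMQ was -1.32 points, with overlap (exact permutation p = 0.667). Cells thinned to 3000 UMIs gave shares of 17.2% and 30.0%, 43.9% and 30.0%, and 42.1% and 28.4%, a difference of 13.4 points between IMQ and Sham, still without overlap (exact permutation p = 0.33), although Sham replicate 2 and IMQ replicate 2 differed by less than the rounding. The gate itself held 12.6% and 42.2% of kept barcodes in Sham, 43.7% and 57.3% after IMQ, and 21.2% and 59.3% after IMQ+SHP099. The makeup of the kept barcodes thus varied within groups, and the cause was not tested.

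**Figure D1:**
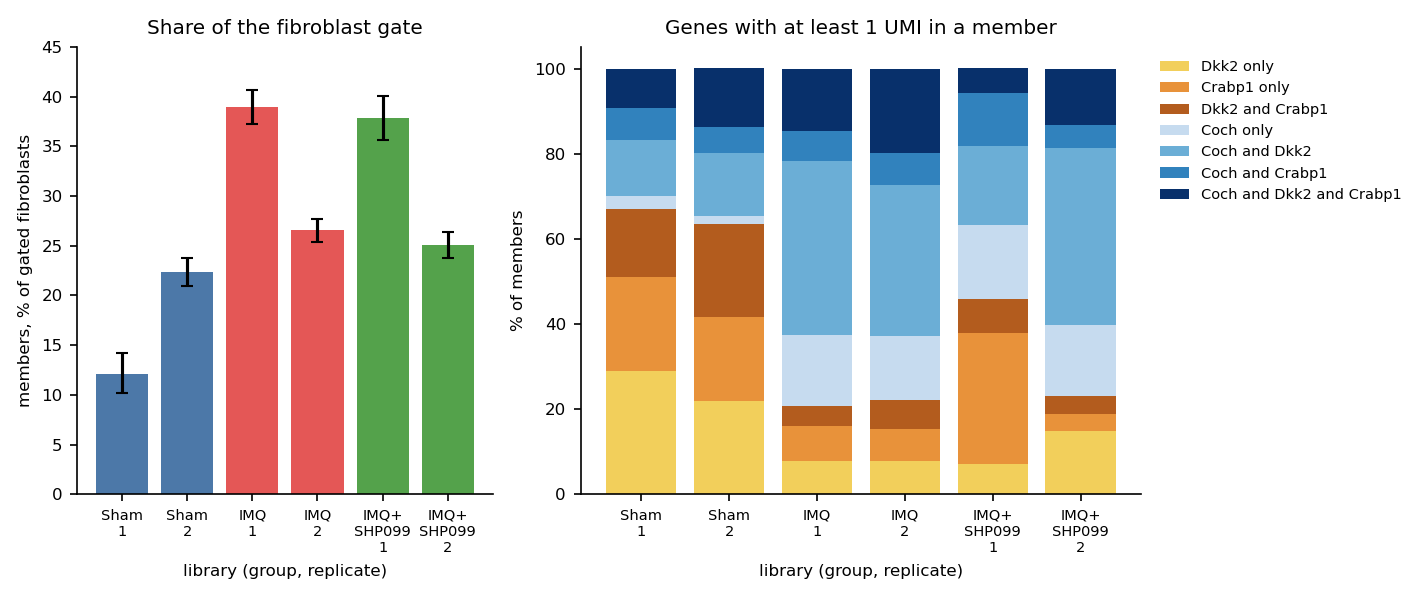
Left, members as a percent of gated fibroblasts in each library, with bars for the share and whiskers for the 95% Clopper-Pearson interval. Right, members of each library split by which of Coch, Dkk2 and Crabp1 had at least 1 UMI, in percent. Cells without a UMI of Coch fill most of both Sham bars and a smaller part of each treated bar.

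The 3 genes did not mark the same cells, and their mix differed between untreated and treated skin. Coch with Dkk2 was the most common combination, in 32.5% of members, followed by all 3 genes in 14.4%, Coch alone in 13.9%, Crabp1 alone in 12% and Dkk2 alone in 11.6%. Members with Coch alone were 3.05% and 1.80% in Sham, 16.7% and 15.0% after IMQ, and 17.4% and 16.6% after IMQ+SHP099. Members with Dkk2 alone were 29.0% and 21.9% in Sham, 7.87% and 7.92% after IMQ, and 7.04% and 14.8% after IMQ+SHP099. Members with Crabp1 alone reached 30.9% in IMQ+SHP099 replicate 1 but 4.10% in replicate 2, against 22.1% and 19.8% in Sham and 8.25% and 7.47% in IMQ. These shares follow from the rule and are a description.

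Among all gated fibroblasts, a UMI of Coch was found in 5.25% and 10.9% of Sham cells, 39.0% and 26.5% of IMQ cells, and 25.8% and 23.0% of IMQ+SHP099 cells. Dkk2 was found in 13.2% and 27.7%, 29.8% and 22.2%, and 16.9% and 21.4%, and Crabp1 in 10.0% and 20.2%, 17.2% and 15.5%, and 28.8% and 9.30%. Only for Coch did both untreated libraries lie below all treated ones. In members, Coch stood at 575 and 941 CPM in Sham, 2708 and 3374 after IMQ, and 1754 and 3425 after IMQ+SHP099. Both chains of type I collagen that the gate uses, Col1a1 and Col1a2, were higher in untreated members. Col1a1 stood at 13057 and 7084 CPM in Sham, 2754 and 3791 after IMQ, and 2292 and 3195 after IMQ+SHP099. Col1a2 stood at 15299 and 10391, 3303 and 4613, and 3444 and 3642. No test is given for genes of the gate.

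Compared with the other gated fibroblasts of the same libraries, most papillary, dermal papilla and Wnt target genes were higher in members, and most reticular, fascia and interferon-stimulated genes were lower. Each library was its own block in this fit. Of 12437 genes tested outside the gate, 1928 were higher in members (15.5%) and 1924 lower (15.5%), by edgeR's quasi-likelihood test at a Benjamini-Hochberg adjusted p under 0.05. Members and the rest were separated by 3 genes of the same cells, so that these values describe what the gate collects. Of 18 dermal papilla genes tested, 12 were higher and 1 lower, with a median log2 difference of 1.57. The summed level of the list did not follow that count, since it was higher in members in 3 of 6 libraries. It stood at 1592 and 2202 CPM in Sham members against 750.1 and 652 CPM in the other fibroblasts, but at 819 and 855 against 2385 and 1296 in IMQ. In IMQ+SHP099 it stood at 727 and 1108 against 638 and 2548.

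The 10 genes named for the largest excess over the other gated fibroblasts were chosen among genes higher in members in 6 of 6 libraries. This agreement between libraries therefore follows from the choice. Edn3, a secreted endothelin that acts on pigment cells, stood at 4.33 to 116 CPM in members (median 7.27) and at 0.0900 to 4.48 CPM in the others (median 0.255), a log2 difference of 5.17 (SE 0.26). Cck, which encodes the peptide cholecystokinin, stood at 10.3 to 55.0 CPM against 0.191 to 2.01 (log2 4.76, SE 0.15). The small proteoglycans Kera and Fmod differed by 4.83 (SE 0.35) and 3.71 (SE 0.14). Fmod, which binds collagen fibrils, stood at 27.6 to 221 CPM in members and 2.10 to 18.7 in the others, so that the ranges did not overlap. The others of this group were Gldn, Slc26a7, Rspo4, Chrna1, Fcgr2b and Corin, with differences of 4.38, 4.26, 3.96, 3.48, 3.36 and 3.29.

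All 9 papillary genes were tested, of which 8 were higher in members and none lower (median log2 1.54). Col23a1, a transmembrane collagen, stood at 82.9 to 166 CPM against 14.7 to 40.8. Nkd2, which dampens Wnt signalling inside the cell, stood at 53.9 to 134 CPM against 10.4 to 43.4. Of 11 Wnt target genes, 10 were higher and 1 lower (median 1.54). Lef1, a transcription factor that acts with beta-catenin, stood at 7.53 to 73.0 CPM in members and 1.19 to 5.46 in the others (log2 3.02, SE 0.23). Axin2, a feedback inhibitor induced by Wnt signals, stood at 16.1 to 49.0 CPM against 4.70 to 26.8 (log2 1.54, SE 0.17). For Lef1 the ranges did not overlap, while for Axin2 they did, although members were higher in each of the 6 libraries. Lef1 is also on the dermal papilla list and Axin2 on the papillary list, so that the counts of these lists are not independent.

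The Wnt ligands and R-spondins were divided. Of 14 tested, 7 were higher and 2 lower in members. Rspo3 and Rspo1, which strengthen Wnt signals, were higher by 2.59 (SE 0.46) and 2.51 (SE 0.14) on the log2 scale, while Wnt2 was lower, with 0 to 2.59 CPM in members and 5.82 to 14.5 in the others (log2 -3.87). Of 12 secreted Wnt inhibitors, 8 were higher and 4 lower. Notum, an enzyme that inactivates Wnt proteins, was higher by 3.23, and Sfrp5 and Sfrp4, secreted binders of Wnt proteins, were lower (log2 -4.03 and -2.96). Of 16 retinoid genes, 6 were higher and 4 lower, and Crabp2, which delivers retinoic acid to its nuclear receptors, stood at 7.67 to 41.7 CPM against 2.52 to 16.2 (log2 1.65). Of 31 BMP, hedgehog and FGF genes, 16 were higher and 4 lower. Fgf10, a growth factor for epithelium, stood at 30.4 to 49.4 CPM in members and 8.13 to 14.8 in the others.

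No reticular or fascia gene of the 16 tested was higher in members and 12 were lower (median log2 -1.40). Plac8 stood at 28.2 to 383 CPM in members and 187 to 1325 in the others (log2 -2.92, SE 0.21), and the chemokine gene Cxcl13 at 5.11 to 514 CPM against 30.0 to 3032 (log2 -2.79). The transcription factor genes Ebf2 and Ebf3 were lower without overlap, at 0.912 to 6.11 CPM against 19.0 to 66.1 and at 1.17 to 2.65 CPM against 10.0 to 34.1. Of 24 interferon-stimulated genes, 2 were higher and 14 lower (median -0.49). Of 19 acute phase and complement genes, 3 were higher and 8 lower, and the complement gene C3 stood at 105 to 871 CPM against 629 to 4363 (log2 -2.15). Of 19 collagen chains, 8 were higher and 5 lower. Col7a1, the collagen of the fibrils that anchor the epidermis, was higher at 52.5 to 217 CPM against 6.47 to 51.0, and Col14a1 was lower at 22.1 to 142 CPM against 163 to 272.

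Keratinocyte markers summed to 83.2 to 727 CPM in members and 98.3 to 3813 CPM in the others, with the highest value in Sham replicate 1. Their part in the comparison was not tested.

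**Figure D2:**
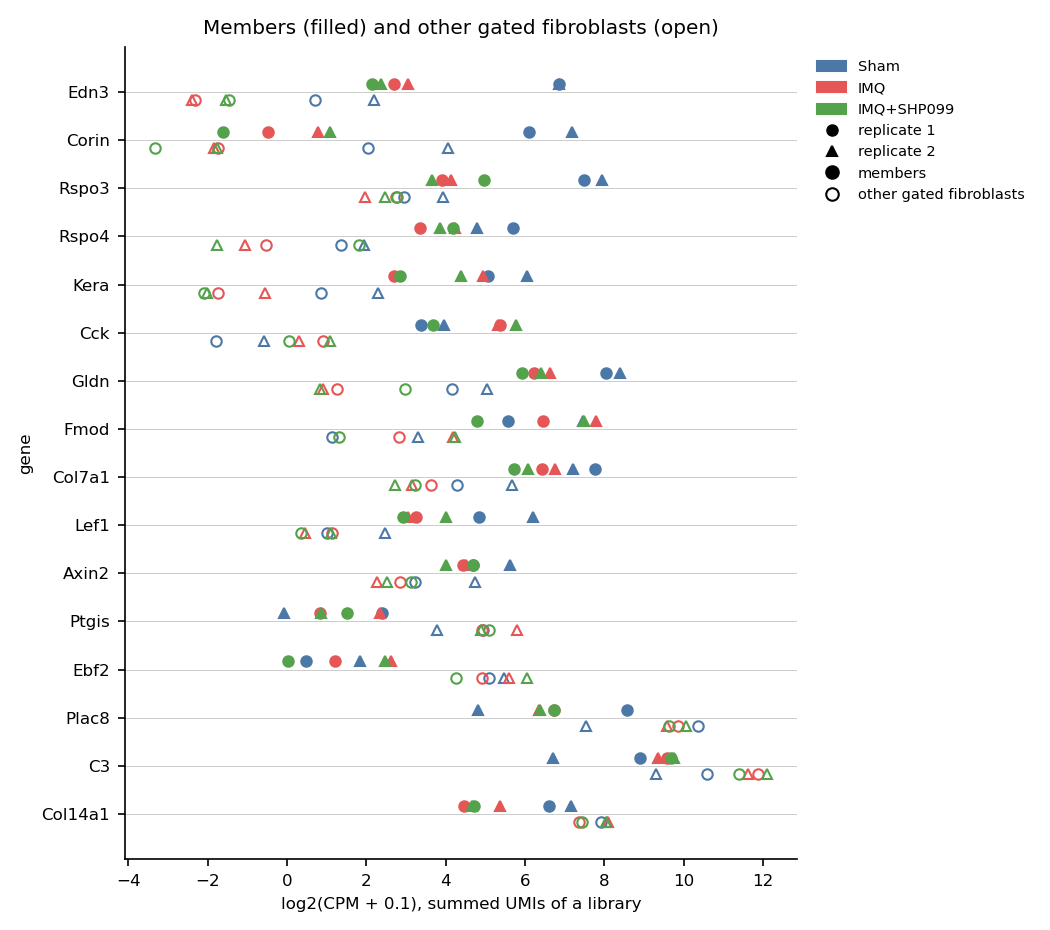
Level of 16 genes in members (filled) and in the other gated fibroblasts (open) of each library, as log2(CPM + 0.1), with groups in colour and replicates by marker shape. Genes from Edn3 to Axin2 lie further right in members and genes from Ptgis to Col14a1 further left, in each of the 6 libraries. For genes named for the largest differences, this agreement was a condition of their choice.

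Members of IMQ and Sham skin were compared to find what the cream altered in them. Of 12468 genes tested, 172 rose (1.38%) and 341 fell (2.74%), and the median log2 change over all genes was -0.01. Genes of the dermal papilla fell and acute phase genes rose. Calls were fewest when only Sham replicate 1, with 131 members, stood for untreated skin. Such a fit has little power, so its count does not show that the changes lie in Sham replicate 2. Without it, 42 genes passed, and without IMQ replicate 1, 307 passed, while 470 of the 471 called genes that could be fitted without Sham replicate 2 kept their sign. With Coch left out of the rule, 282 genes passed, of which 280 were among the 513.

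Of 20 dermal papilla genes, 11 fell, none rose, and 9 did not pass (median log2 -2.22). Without Sham replicate 2, 5 of them passed. Corin, a membrane protease of the dermal papilla, stood at 68.5 and 146 CPM in Sham, 0.616 and 1.63 after IMQ, and 0.228 and 2.01 after IMQ+SHP099. Every untreated library thus lay far above every treated one, and the change in IMQ was -6.57 on the log2 scale (SE 0.62, edgeR adjusted p = 7.53e-04). Genes named for the largest falls, Corin among them, had to show no overlap between the groups. Rspo2, an R-spondin, stood at 28.5 and 33.5 CPM in Sham, 0.264 and 0.611 after IMQ, and 0.228 and 1.08 after IMQ+SHP099 (log2 -6.08 in IMQ). Sox18, a transcription factor also made by endothelium, stood at 87.9 and 293 CPM, 1.67 and 4.34, and 2.96 and 2.01 (log2 -6.01). Hhip, which binds and holds back hedgehog proteins, stood at 87.9 and 225 CPM, 2.73 and 3.05, and 4.56 and 6.97 (log2 -5.80).

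The share of cells moved with the levels. Corin was found in 9.16% and 17.6% of Sham members, 0.382% and 1.28% of IMQ members and 0.144% and 0.912% of IMQ+SHP099 members. After thinning to 3000 UMIs, which left out 23 of the 131 members of Sham replicate 1, the shares were 10.2% and 14.2%, 0% and 0.614%, and 0% and 0.323%. Ptprc-positive cells, at a median depth of 1880 to 6662 UMIs, held a UMI of Corin in 0 to 0.986% of cells, so that the treated members lay at about the level of cells that should lack the gene. Endothelial markers in members summed to 7.76 and 22.8 CPM in Sham and 9.35 to 33.5 CPM in treated libraries, while Sox18 fell.

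The remaining dermal papilla genes that fell were Sox2, Rspo3, Ndp, Bmp6, Notum, Lef1 and Alpl. Rspo3 stood at 181 and 247 CPM in Sham, 15.0 and 17.4 after IMQ, and 31.0 and 12.6 after IMQ+SHP099 (log2 -3.74, SE 0.42). Lef1 stood at 28.5 and 73.0 CPM, 9.41 and 8.15, and 7.53 and 16.0 (log2 -2.65). The growth factor genes Fgf7 and Fgf10 are also on the list and did not pass, and Fgf10 stood at 33.6 and 35.5 CPM in Sham and 30.4 and 30.6 in IMQ. The list therefore did not move as a whole.

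**Figure D3:**
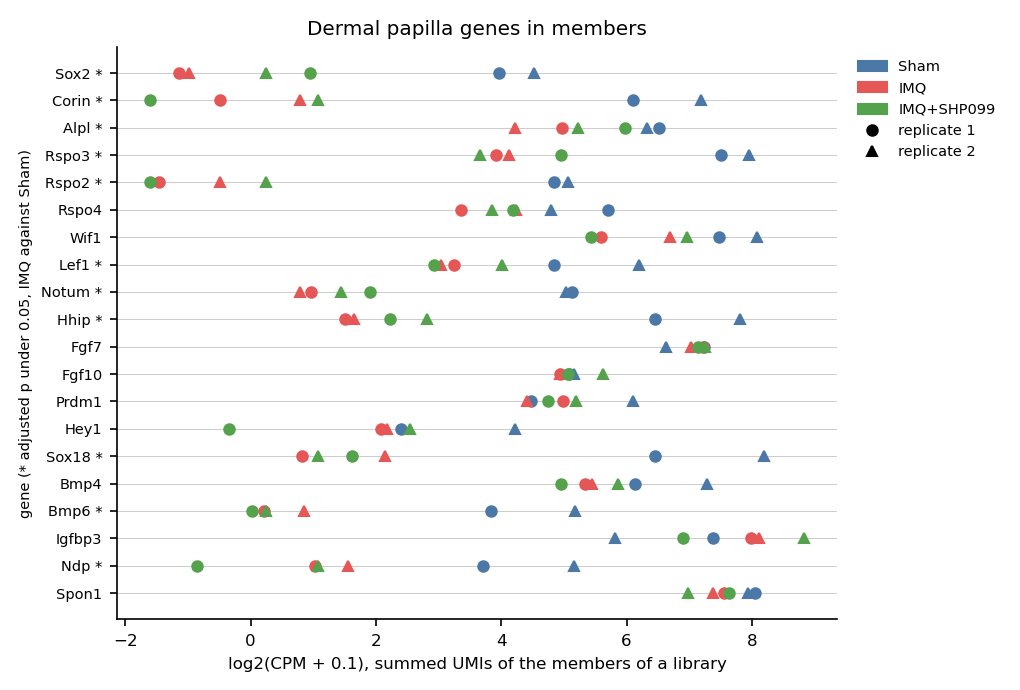
Level of 20 dermal papilla genes in members, as log2(CPM + 0.1), with a point per library. The 11 genes that passed for IMQ against Sham carry an asterisk, and the Sham points lie to the right of the treated points for each of them.

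Wnt genes, some of which are also on the dermal papilla list, were mixed. Of 15 ligands and R-spondins, 3 fell, of 11 inhibitors 3 fell and 1 rose, of 17 receptors 2 fell, and of 11 targets 3 fell. Wnt5a, a ligand that acts mainly without beta-catenin, stood at 206 and 352 CPM in Sham, 43.3 and 48.7 after IMQ, and 77.8 and 33.6 after IMQ+SHP099 (log2 -2.62, SE 0.43). The inhibitors Notum, Frzb and Sostdc1 fell by 4.26, 3.89 and 3.20 on the log2 scale, while Dkk3 rose by 1.48. Axin2 stood at 25.9 and 49.0 CPM in Sham and 21.5 and 22.7 in IMQ and did not pass (adjusted p = 0.237). Ccnd1, the gene of cyclin D1, stood at 153 and 119.8 CPM in Sham and 16.5 and 31.6 in IMQ (log2 -2.49). No papillary gene of 9 passed.

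Of 29 BMP, hedgehog and FGF genes tested, 8 fell and none rose (median log2 -0.80), and 1 passed without Sham replicate 2. Bmp3 and Bmp6 fell by 4.96 and 4.32 on the log2 scale. Edn3, which had the largest difference between members and other fibroblasts among the named genes, stood at 116 and 115 CPM in Sham, 6.34 and 8.21 after IMQ, and 4.33 and 5.11 after IMQ+SHP099, with no overlap (log2 -3.99, SE 0.27). Other named genes that fell were Igfbp2, which binds insulin-like growth factors, F5, the gene of coagulation factor V, and Sncb, with changes of -6.52, -5.73 and -5.69. Dbh, an enzyme of noradrenaline synthesis, had 302 UMIs in Sham members and 3 in IMQ members, a ratio of 314 (counting interval 107 to 1533).

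Of 19 acute phase and complement genes, 9 rose, none fell and 10 did not pass (median log2 2.40). Without Sham replicate 2, 3 passed. Saa3, a serum amyloid A made outside the liver, stood at 0 and 2.02 CPM in Sham, 19184 and 11643 after IMQ, and 36552 and 10121 after IMQ+SHP099. The untreated members held 19 UMIs of it and the IMQ members 389543 (log2 13.11, SE 1.17, edgeR adjusted p = 5.54e-04). Lcn2, which withholds iron from bacteria, stood at 0 and 0.426 CPM, 3057 and 1359, and 3474 and 1297, with 4 UMIs in Sham. Saa1, another serum amyloid A, stood at 0 and 0.107 CPM, 118 and 56.0, and 141 and 73.8. It had 1 UMI in Sham, and the ratio was 695 (counting interval 125 to 27466). Saa2 had no UMI in Sham and was at least 39.3-fold higher in IMQ, with the floor set at 3 counts over the group.

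The other gated fibroblasts also held these transcripts. Saa3 in the other gated fibroblasts stood at 17 and 10.1 CPM in Sham, 21911 and 7515 after IMQ, and 26276 and 7235 after IMQ+SHP099, and the changes of both parts did not differ past the threshold (log2 difference 2.79, SE 0.51, adjusted p = 0.0816). A UMI of Saa3 was found in 66.1% and 59.3% of IMQ members, at 19099 and 12102 UMIs per 1000000 before scaling. In IMQ, Ptprc-positive cells held 3166 and 2267 UMIs per 1000000 and keratinocytes 417 and 185. Lcn2 in IMQ members stood at 3044 and 1413 UMIs per 1000000, in Ptprc-positive cells at 1170.1 and 2063, and in keratinocytes at 361 and 333.

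Promoter sequences are shown for 3 of the acute phase genes that rose, because members of the C/EBP family of transcription factors are known to drive acute phase genes. The sequences are the 250 bases before the RefSeq transcription start (GRCm38.p6), read 5′ to 3′ on the gene's strand. Capitals mark matches to TTGCNNAA on either strand.
Saa3 (chr7:46715677-46715926, minus strand): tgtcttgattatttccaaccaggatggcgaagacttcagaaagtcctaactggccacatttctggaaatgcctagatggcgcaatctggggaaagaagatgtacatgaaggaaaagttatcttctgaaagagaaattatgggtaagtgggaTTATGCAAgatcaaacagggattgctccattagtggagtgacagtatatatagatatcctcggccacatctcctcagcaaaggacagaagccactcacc
Lcn2 (chr2:32387740-32387989, minus strand): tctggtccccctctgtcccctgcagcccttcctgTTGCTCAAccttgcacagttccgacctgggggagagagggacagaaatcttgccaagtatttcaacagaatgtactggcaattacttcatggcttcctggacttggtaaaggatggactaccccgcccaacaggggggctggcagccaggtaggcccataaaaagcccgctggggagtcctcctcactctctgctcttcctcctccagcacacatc
Saa1 (chr7:46742981-46743230, minus strand): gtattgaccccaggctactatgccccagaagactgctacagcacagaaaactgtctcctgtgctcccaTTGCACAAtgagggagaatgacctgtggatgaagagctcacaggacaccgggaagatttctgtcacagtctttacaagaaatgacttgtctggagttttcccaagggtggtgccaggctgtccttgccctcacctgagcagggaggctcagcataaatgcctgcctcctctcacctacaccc

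The matches lay 99 to 92 bases before the start in Saa3, 216 to 209 in Lcn2 and 182 to 175 in Saa1. Of the 9 acute phase genes that rose, 7 had a single promoter in the table, and 5 of these held the motif (Lcn2, Saa3, Saa1, Saa2 and Steap4). Among the 32851 promoters of the same length that were searched, 9.56% held it. Promoters of a chromosome were left out of this search. Saa1, Saa2 and Saa3 belong to 1 gene family. In Saa1 and Saa2 the match has the same letters and begins 182 and 183 bases before the start, so that the matches are not independent of each other. A NF-kB type motif was present in 2 of the 7 and in 7.25% of the promoters searched. Of the 7 chemokine and cytokine genes that rose, 4 had a single promoter, of which 1 held the C/EBP motif and 2 the NF-kB motif. Of the 11 dermal papilla genes that fell, 5 had a single promoter, of which 1 held the C/EBP motif and none the NF-kB motif. A match describes letters and does not show binding.

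Of 24 chemokine and cytokine genes, 7 rose and 1 fell (median log2 0.97), and 1 rose without Sham replicate 2. Cxcl12, which attracts leukocytes through CXCR4, stood at 137 and 87.7 CPM in Sham, 1623 and 1611 after IMQ, and 2301 and 1457 after IMQ+SHP099 (log2 3.87, SE 0.44). Cxcl5, which attracts neutrophils, had no UMI in Sham members and stood at 78.1 and 99.8 CPM in IMQ, at least 252-fold higher. Tnfsf11, the ligand of RANK, had 2 UMIs in Sham and a ratio of 45 (counting interval 12.3 to 373). Cxcl9, a target of interferon gamma, fell from 23.3 and 43.7 CPM to 0.528 and 4.07 (log2 -3.91). The other 4 genes that rose were Cxcl1, Il6, Il33 and Csf3. The summed level of the list did not follow these counts. It stood at 5923 and 1207 CPM in Sham members, 4576 and 4245 after IMQ, and 7749 and 4482 after IMQ+SHP099. Sham replicate 1 thus lay above both IMQ libraries.

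**Figure D4:**
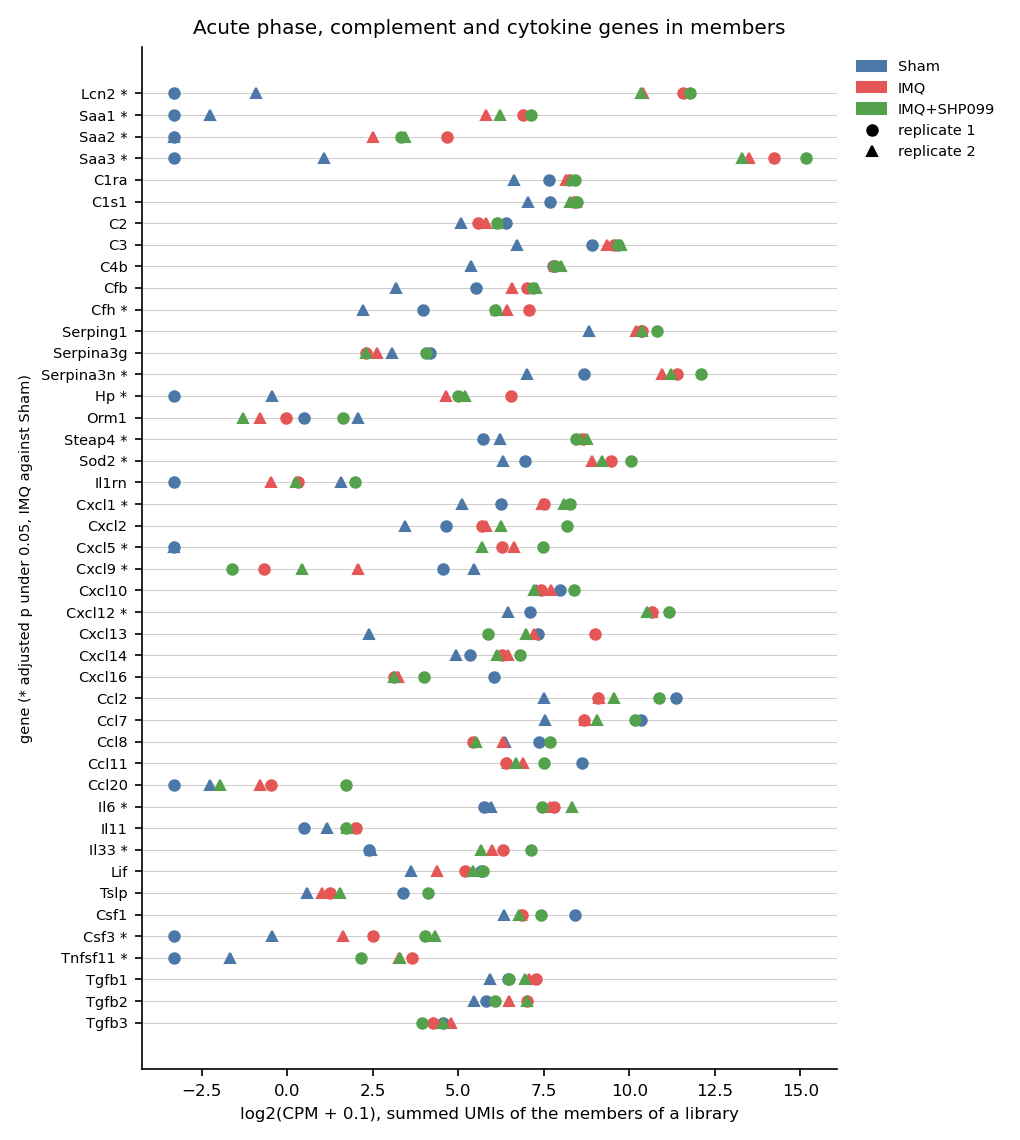
Level of acute phase, complement, chemokine and cytokine genes in members, as log2(CPM + 0.1), with a point per library and an asterisk for genes that passed for IMQ against Sham. Saa3, Lcn2, Saa1 and Cxcl5 stand at 0 to 2.02 CPM in Sham and lie far to the right of that in the 4 treated libraries.

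Of 26 NF-kB feedback and receptor genes, 3 rose and 1 fell. Osmr, a receptor subunit for oncostatin M, stood at 63.4 and 40.3 CPM in Sham and 196 and 169 in IMQ (log2 1.87), and Vcam1, which binds leukocyte integrins, at 203 and 70.4 and at 20.8 and 30.4 (log2 -2.35). Of 24 interferon-stimulated genes, 2 fell, Gbp5 and Iigp1 (log2 -3.36 and -1.72), and none rose (list median -1.02). The summed level of this list stood at 4168 and 1137 CPM in Sham members and 783 and 1019 in IMQ members. The untreated libraries thus differed from each other, and the part of this in other values was not tested. None of the 16 immediate early, 17 hypoxia or 19 ERK feedback genes passed. Ptpn11, which encodes SHP2, stood at 49.1 and 63.0 CPM in Sham, 54.2 and 60.8 after IMQ, and 59.5 and 53.9 after IMQ+SHP099, with a log2 change in IMQ of -0.00 (SE 0.25).

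Matrix genes changed singly. Of 27 matrix glycoproteins and proteoglycans, 1 rose, Tnc, the gene of tenascin C, at 113 and 24.7 CPM in Sham, 2101 and 1262 after IMQ, and 2945 and 1301 after IMQ+SHP099 (log2 4.72, SE 0.77). Of 19 collagen chains outside the gate, Col15a1 and Col14a1 fell, by 2.41 and 1.95 on the log2 scale, and none rose. Of 20 matrix proteases and inhibitors, Mmp11 and Mmp3 rose by 3.02 and 2.91, and Timp3 fell by 1.97. Of 15 reticular and fascia genes, Mgp, an inhibitor of calcification, and Fabp4, a fatty acid carrier, rose by 4.51 and 3.73. Fabp4 is also an adipocyte marker, and the 4 adipocyte markers summed to 7.76 and 5.01 CPM in Sham members and to 32.6 to 116 CPM in treated members, of which Fabp4 made up 32.6 to 115 CPM. The part of adipocyte RNA in this rise was not tested. Prg4, the joint lubricant lubricin, stood at 1.29 and 0.426 CPM in Sham and 272 and 148 in IMQ (log2 8.64). Cbln1, a secreted protein best known at synapses, had no UMI in Sham members and stood at 105 and 49.8 CPM in IMQ, at least 206-fold higher.

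Of 18 cell cycle genes, 10 fell and none rose (median log2 -2.37). Ube2c, needed for exit from mitosis, stood at 23.3 and 56.1 CPM in Sham and 2.82 and 6.38 in IMQ. None of the 18 passed without Sham replicate 2, and none passed with Coch left out of the rule, although the medians stayed negative (-1.43 and -1.83).

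Transcripts of other cell types also differed between the groups. Of 8 keratinocyte markers, 3 fell and 1 rose, and their sum was 304 and 727 CPM in Sham, 137 and 88.0 after IMQ, and 289.9 and 83.2 after IMQ+SHP099. Krt77, a keratin of the epidermis, had 1619 UMIs in Sham members and none in treated members, while keratinocytes held 768 and 589 UMIs per 1000000 of it in Sham and 0.939 to 19.3 in treated libraries. S100a8 and S100a9, made by neutrophils and inflamed keratinocytes, rose in members, to 74.9 and 103 CPM of S100a8 in IMQ, where keratinocytes held 15584 and 12574 UMIs per 1000000. A UMI of S100a8 was found in 45.7% and 44.2% of IMQ members and in 42.9% and 42.1% of the other gated fibroblasts. Whether these UMIs came from other cells was not tested. Myeloid markers summed to 31.0 and 25.1 CPM in Sham and to 167 to 431 CPM in the treated libraries. Haemoglobin genes rose, with Hba-a1 at 0 and 1.49 CPM in Sham, 325 and 119.5 after IMQ, and 0.228 and 9.76 after IMQ+SHP099, although only 2.06% and 1.34% of IMQ members held a UMI of it. The part of these transcripts in the other results was not tested.

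Members under the cream with and without SHP099 were compared next, for the effect of the inhibitor. No gene of 12468 passed (0%) in edgeR, and 138 had an unadjusted p under 0.05. DESeq2 called 1 gene. The genes named for the smallest p, none of which passed, were 3 haemoglobin genes, Cd74 and Matn4. Cd74, the invariant chain of MHC class II, stood at 42.9 and 16.8 CPM after IMQ and 6.16 and 3.25 after IMQ+SHP099 (log2 -2.68, adjusted p = 0.844). Matn4, a matrix protein, stood at 31.1 and 33.1 CPM and at 7.30 and 13.5 (log2 -1.59, adjusted p = 0.844). Medians over the lists were 0.18 for dermal papilla, 0.31 for acute phase and 0.38 for chemokine genes, beside 0.01 over all genes. With 2 libraries a group, a difference that did not pass does not show that the groups are alike.

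Against Sham, IMQ+SHP099 members showed 171 genes higher (1.37%) and 297 lower (2.38%). This comparison shares its Sham libraries with the one above, so that the values stand side by side and are not independent of each other. Dermal papilla genes numbered 0 higher and 10 lower of 20 (median log2 -2.12), acute phase genes 10 higher and 0 lower of 19 (2.61), chemokines 9 higher and 1 lower of 24 (0.82), and cell cycle genes 0 higher and 10 lower of 18 (-2.74). Corin changed by -6.44 (edgeR adjusted p = 0.00139) and Cxcl12 by 4.10 (adjusted p = 0.00176). Without Sham replicate 2, 24 genes passed, without IMQ+SHP099 replicate 1, 105, and without replicate 2, 117. The share of called genes that were higher was 36.5% with all libraries and 25%, 56.2% and 70.1% in these 3 cases.

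The change under IMQ was also set against that in the other gated fibroblasts. Of 12437 genes, 58 changed differently (0.466%), 27 with a higher and 31 with a lower change in members. Hhip, the hedgehog binder, fell in members as given above but stood at 6.10 and 24.6 CPM in the other fibroblasts of Sham and 11.9 and 12.3 in those of IMQ (log2 difference of changes -5.42, edgeR adjusted p = 0.00519). Without IMQ replicate 1, 4 genes passed, without IMQ replicate 2, 10, without Sham replicate 2, 34, and without Sham replicate 1, 173. For IMQ+SHP099 against IMQ no gene passed this test (0%) in edgeR, 185 had an unadjusted p under 0.05, and DESeq2 called 1.

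Because the mix of Coch, Dkk2 and Crabp1 cells differed between groups, levels were also read within each kind of member, as UMIs per 1000000 before scaling. In members with Crabp1 alone, Corin stood at 67.7 and 262 in Sham, 0 and 0.968 in IMQ, and 0 in both IMQ+SHP099 libraries. In members with 2 or 3 of the genes it stood at 94.8 and 216, 0.913 and 1.59, and 0.441 and 1.66. In these 2 kinds of cell the level was thus lower in treated skin. The mix within the kind with 2 or 3 genes also differed between groups. Coch with Dkk2 made up 13.0% and 14.9% of all Sham members and 40.8% and 35.6% of IMQ members. Dkk2 with Crabp1 made up 16.0% and 21.9% of Sham and 4.66% and 6.70% of IMQ members. The part of this mix in the lower level was not tested. In members with Dkk2 alone Corin stood at 0 and 33.2 in Sham, 0 and 3.71 after IMQ, and 0 and 8.65 after IMQ+SHP099, so that the groups overlapped. With Coch alone, Sham held 4 and 14 cells and 1 UMI of Corin in all, too few to show a difference. Rspo3 stood at 245 and 649 in Sham and 13.5 to 47.9 in treated members with Crabp1 alone. In members with Dkk2 alone, Rspo3 stood at 5.35 and 20 in Sham and at 21.9 and 19.8 in IMQ, with no such difference.

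The kinds also differed among themselves in treated skin. Saa3 was highest in members with Crabp1 alone, at 39118 and 33186 after IMQ and 51767 and 28793 after IMQ+SHP099, and lowest in members with Dkk2 alone, at 5349.5 and 2624 and at 4129.8 and 855. Tnc followed the same order, with 4294 and 3032 in IMQ members with Crabp1 alone and 1110 and 699 in those with Dkk2 alone. Mgp had the reverse order, at 26.5 and 60.0 with Crabp1 alone and 989 and 1489.8 with Dkk2 alone. Crybb3, a crystallin gene, stood at 759 and 123 in IMQ members with Crabp1 alone and at 3.13 and 2.47 in those with Dkk2 alone. Fmod stood at 128 and 322 in IMQ members with 2 or 3 of the genes and at 0 in both single kinds just named. These orders were read from the same cells that defined the kinds and were not tested.

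**Figure D5:**
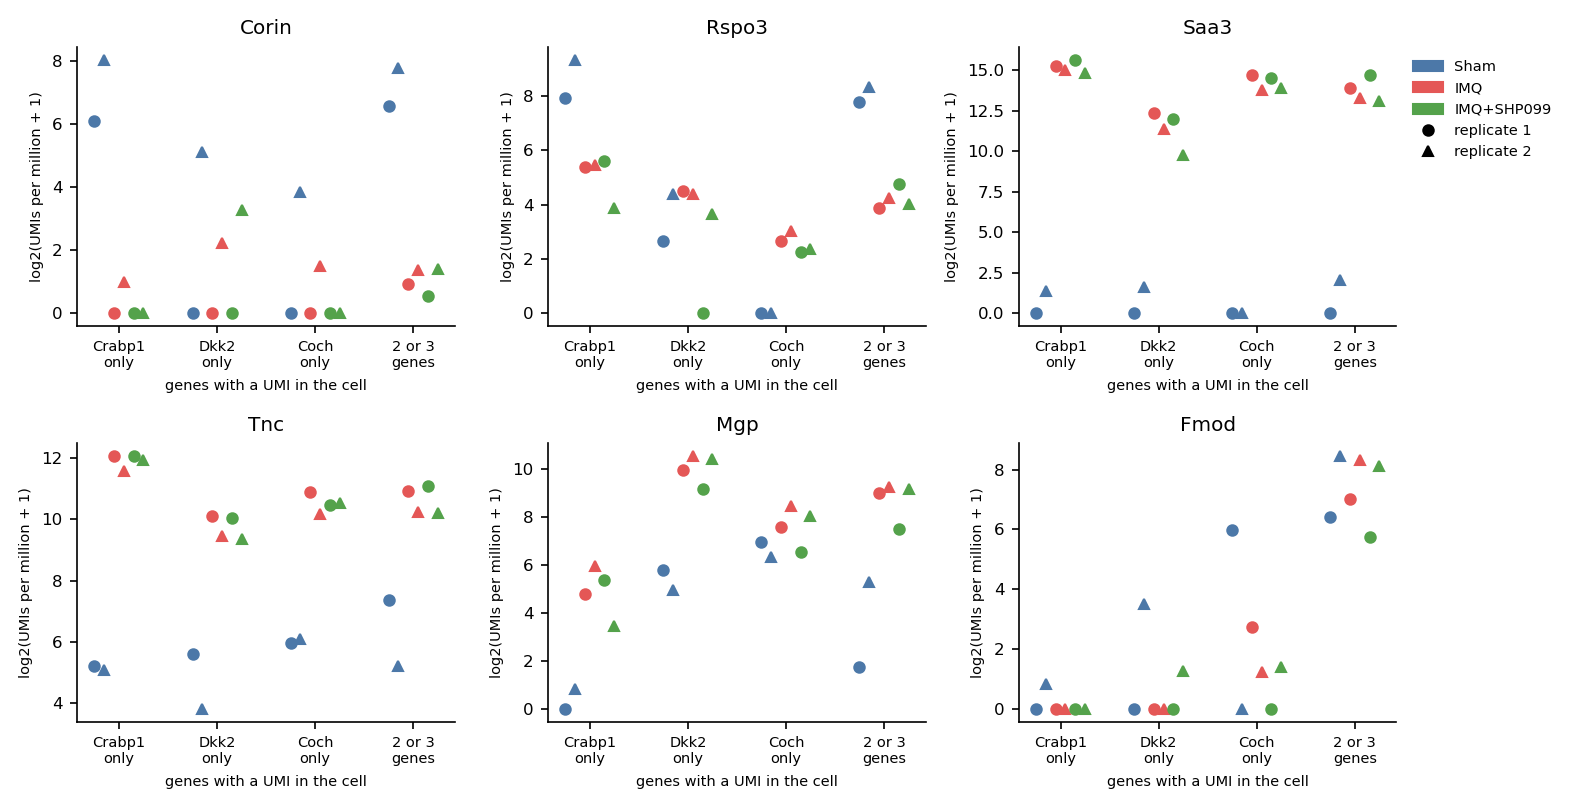
Level of 6 genes in members split by which of Coch, Dkk2 and Crabp1 had a UMI, as log2(UMIs per 1000000 + 1), with a point per library. Corin and Rspo3 are high in Sham members with Crabp1 alone or with 2 or 3 genes, Saa3 and Tnc are highest in treated members with Crabp1 alone, Mgp in treated members with Dkk2 alone, and Fmod in members with 2 or 3 genes.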

How the data were processed

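The authors aligned and counted droplet single-cell reads with Cell Ranger 3.1.0 against GRCm38 (mm10) and deposited a matrix of UMI counts for each of the 6 libraries. A barcode was kept below 100000 UMIs, 6500 detected genes and a mitochondrial share of 10%. The members and gene lists were chosen with earlier results of these data known. Counts were summed per library over members and over the other gated fibroblasts. Genes were tested with edgeR 4.0.16 (quasi-likelihood, TMM scaling, R 4.3.3) across all groups, without the 12 gate genes, and p-values were adjusted by Benjamini-Hochberg over all genes tested. Members and other fibroblasts were compared with the library as a block. DESeq2 1.42.0, other scaling, no filter, other limits of the rule, a replicate block and leaving out each library were alternatives. The procedure was tested on simulated data. Named genes were those with the largest changes past the threshold and genes of the lists. Where all called genes of a list are given, some were added after their values were seen. The largest changes needed a mean of at least 20 CPM in the higher group or part. Those named for a rise or fall between groups also needed no overlap between the libraries of these groups. Those named for members against other fibroblasts needed the same sign in all 6 libraries. A gene that this rule named is not reported here. Single values were compared by exact two-sided permutation tests. Shares were also computed after thinning each cell to 3000 UMIs, leaving out shallower cells. Counting intervals and floors (3 counts over a group) do not include differences between mice.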

Additional observations from a re-analysis of the deposited data

Results flagged for a closer look

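Members and the other gated fibroblasts differed in their change from Sham to IMQ for 58 genes, and the values of those named are given, some with levels in CPM. The difference was tested as an interaction in edgeR.

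Changes that were higher in members were found for Hba-a1 (log2 difference 5.63, adjusted p = 0.0205), Hba-a2 (5.58), Fabp4 (4.76), Crybb3 (3.55) and Ucp2 (2.59). Few IMQ members held a UMI of Hba-a1, as given above. The adipocyte markers, Fabp4 among them, summed to 13.3 and 139 in the other fibroblasts of Sham and to 120.3 and 20.2 in those of IMQ. The part of RNA from other cells in these differences was not tested. Ucp2, a mitochondrial carrier, stood at 16.8 and 14.0 in Sham and 55.0 and 45.4 in IMQ members, against 21.4 and 20.8 and 14.2 and 10.0 in the other fibroblasts. Crybb3 stood at 1.29 and 1.70 in Sham members and 77.7 and 12.5 in IMQ members.

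Changes that were lower in members were found for Hhip (log2 difference -5.42), Gdf10 (-5.10), Ncald (-3.96), Prss12 (-3.35) and Sulf1 (-3.19). Gdf10, a BMP family ligand, stood at 38.8 and 83.8 in Sham and 2.64 and 9.84 in IMQ members, while the other fibroblasts stood at 5.53 and 14.1 and at 34.0 and 33.3. Sulf1, which trims heparan sulphate, stood at 36.2 and 83.9 in Sham members and 12.5 and 16.4 in IMQ members, while the other fibroblasts stood at 41.8 and 35.9 and at 57.8 and 96.9.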

How the results depend on the processing

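With 2 libraries a group, and 131 members in Sham replicate 1, precision is set by few libraries. For IMQ against Sham, 1402 genes passed with no filter on low counts, 825 with the replicate block and 282 with Coch not used, and 42 to 589 when 1 library was left out. For IMQ+SHP099 against Sham the counts were 1308, 828 and 235, and 24 to 500. For IMQ+SHP099 against IMQ they were 55 with no filter, 5 with the replicate block and 1 by DESeq2, and 0 to 7 with 1 library left out. Members against other fibroblasts gave 2422 to 4364 genes with 1 library left out, the lowest without IMQ replicate 2. The difference of changes gave 430 genes with no filter and 193 by DESeq2 for IMQ against Sham, with 4 to 173 when 1 library was left out. For IMQ+SHP099 against IMQ it gave 6 with no filter, 1 by DESeq2 and 2 with at least 2 UMIs, with 0 to 3. The share of members differed by 6.02 points between IMQ and Sham with Coch not used, and by 9.34 to 21.8 with 1 library left out. For IMQ+SHP099 minus IMQ that range was -7.73 to 5.08. That difference thus took both signs, and it was 0.453 points with Coch not used. The permutation test cannot reach a small p with so few libraries, so it cannot decide whether these shares differ. The cause of these shifts was not tested. Libraries with the same number deviated together with correlations of 0.132, 0.321 and 0.0452, so the number was taken as a name and the block as an alternative only.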
